A study of Mus musculus with 31 samples.

Results

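The interferon regulatory factor (IRF) genes encode TFs that bind repeats of the letters GAAA in the promoters of interferon genes and of genes that interferon induces. The 8 genes Irf1, Irf2, Irf3, Irf4, Irf5, Irf7, Irf8 and Irf9 were taken by name from the 21938 protein-coding genes of the mouse annotation; the rule that picks them uses no measured value, although the set was proposed with earlier results of these data known. Accessibility was measured by ATAC-seq in the unmodified parental line NIH-3T3 (1 library), which are fibroblasts from mouse embryos and have no transgene for a TF. Its labels name no doxycycline. The authors' ATAC-seq methods describe doxycycline for NIH-3T3 cells and name no exception, so whether this library received it is not certain. Not analysed here were 30 further samples, of which 26 overexpressed 1 of 13 TFs and 4 carried the doxycycline-dependent activator rtTA3G alone. In ATAC-seq the transposase Tn5 cuts DNA that is not wrapped in nucleosomes, so that a peak marks accessible chromatin, not transcription. There is no replicate, so all values describe this library, and no difference was tested against biological error.

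In an infected cell, RNA or DNA sensors activate kinases that phosphorylate IRF3, which is made in most cells, and IRF7, whose gene is itself induced by interferon. Both then switch on the genes of type I interferons. Secreted interferon acts on receptors that signal through JAK kinases and STATs, and IRF9 joins STAT proteins in the complex that binds interferon-stimulated response elements. IRF1 activates many of the same targets and IRF2 competes with it for their sites. IRF4, IRF5 and IRF8 are known mainly from blood cells: IRF4 from plasma cells and activated lymphocytes, IRF8 from monocytes and dendritic cells, and IRF5 from macrophages. IRF4 and IRF8 often bind DNA beside the ETS factor PU.1 (Spi1) or the AP-1 factor BATF. On this textbook basis 5 genes (Irf1, Irf2, Irf3, Irf7 and Irf9) were grouped as widely expressed and 3 (Irf4, Irf5 and Irf8) as blood genes. No gene known mainly from epithelia was among those listed.

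The sequences on which the account turns are shown first, each read from the RefSeq copy of GRCm38, the build named mm10 in the files, and given 5′ to 3′. The reference sequence is not that of the NIH-3T3 line. The Irf1 promoter at chr11:53769904-53770013 (plus strand) ends at the base before the annotated gene. Its capitals mark a STAT motif, TTCNNNGAA, and a kB motif, the site of NF-kappaB.
Irf1 promoter: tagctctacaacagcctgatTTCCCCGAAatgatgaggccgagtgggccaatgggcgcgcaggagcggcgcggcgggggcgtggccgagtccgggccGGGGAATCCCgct

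The Irf2 promoter at chr8:46739478-46739549 (plus strand) is shown because its peak was the only TSS peak of the 8 genes with an IRF motif, GAAANNGAAA. In the capitals an ETS-IRF motif, GGAANNGAAA, runs into the IRF motif and shares its first GAAA, and a STAT motif follows.
Irf2 promoter: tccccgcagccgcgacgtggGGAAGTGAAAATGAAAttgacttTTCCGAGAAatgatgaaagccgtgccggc

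The strongest peak inside any of the genes lay in an intron of Irf2. The summit with 50 bases to either side, chr8:46811451-46811551 (plus strand), held none of the 6 motifs searched, and the capital marks the summit base. A weaker intron peak of Irf2, at chr8:46842924-46842984 (plus strand), held an IRF motif on the other strand, shown in capitals.
Irf2 strongest intron peak: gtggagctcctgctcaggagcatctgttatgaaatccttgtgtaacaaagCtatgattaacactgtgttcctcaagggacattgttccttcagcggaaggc
Irf2 intron peak with the IRF motif: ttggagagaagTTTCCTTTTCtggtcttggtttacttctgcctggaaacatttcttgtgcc

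The only called TSS peak of Irf5 lay at an internal start. That summit with 50 bases to either side, chr6:29529130-29529230 (plus strand), is shown with an AP-1 motif, TGACTCA, and an ETS-IRF motif in capitals. Both lie on the other strand, so the letters appear as their reverse complements.
Irf5 internal start: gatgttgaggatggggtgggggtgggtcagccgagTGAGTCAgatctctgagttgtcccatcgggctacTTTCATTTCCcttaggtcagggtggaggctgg

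The Irf8 promoter stands for a site without a peak. The stretch chr8:120736172-120736228 (plus strand) is shown with a pair of STAT motifs in capitals. For Irf7, whose promoter gave the weakest TSS peak, the upstream part of the peak at chr7:141266482-141266535 (minus strand) held none of the motifs.
Irf8 promoter: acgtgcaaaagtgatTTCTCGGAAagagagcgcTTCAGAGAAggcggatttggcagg
Irf7 promoter: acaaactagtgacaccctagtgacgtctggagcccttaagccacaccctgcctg

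A peak lay within 1 kb of an annotated TSS in 6 of the 8 IRF genes, or 75% (exact 95% binomial interval 34.9% to 96.8%), against 53.7% of all coding genes. That interval covers counting error only and includes the background. All 5 widely expressed genes had such a peak, and of the 3 blood genes Irf5 alone did. When only the 5′ end of the gene was counted, the numbers were 5 of 5 and 0 of 3, with 48.9% of coding genes as background. Genes this few allow no more than a description, and both groups were formed with earlier results of these data known.

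The list gives each peak a fold enrichment, the ratio of the fragments at its summit to the number expected locally after 1 is added to each, and a −log10 q from a Poisson test. The count of fragments under the summit follows from both values and carries an exact 95% Poisson interval for counting error. Over the whole list of 63456 peaks the median fold was 6.04 (quartiles 4.20 and 9.15), and the median summit lay under 29 fragments.

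**Figure D1:**
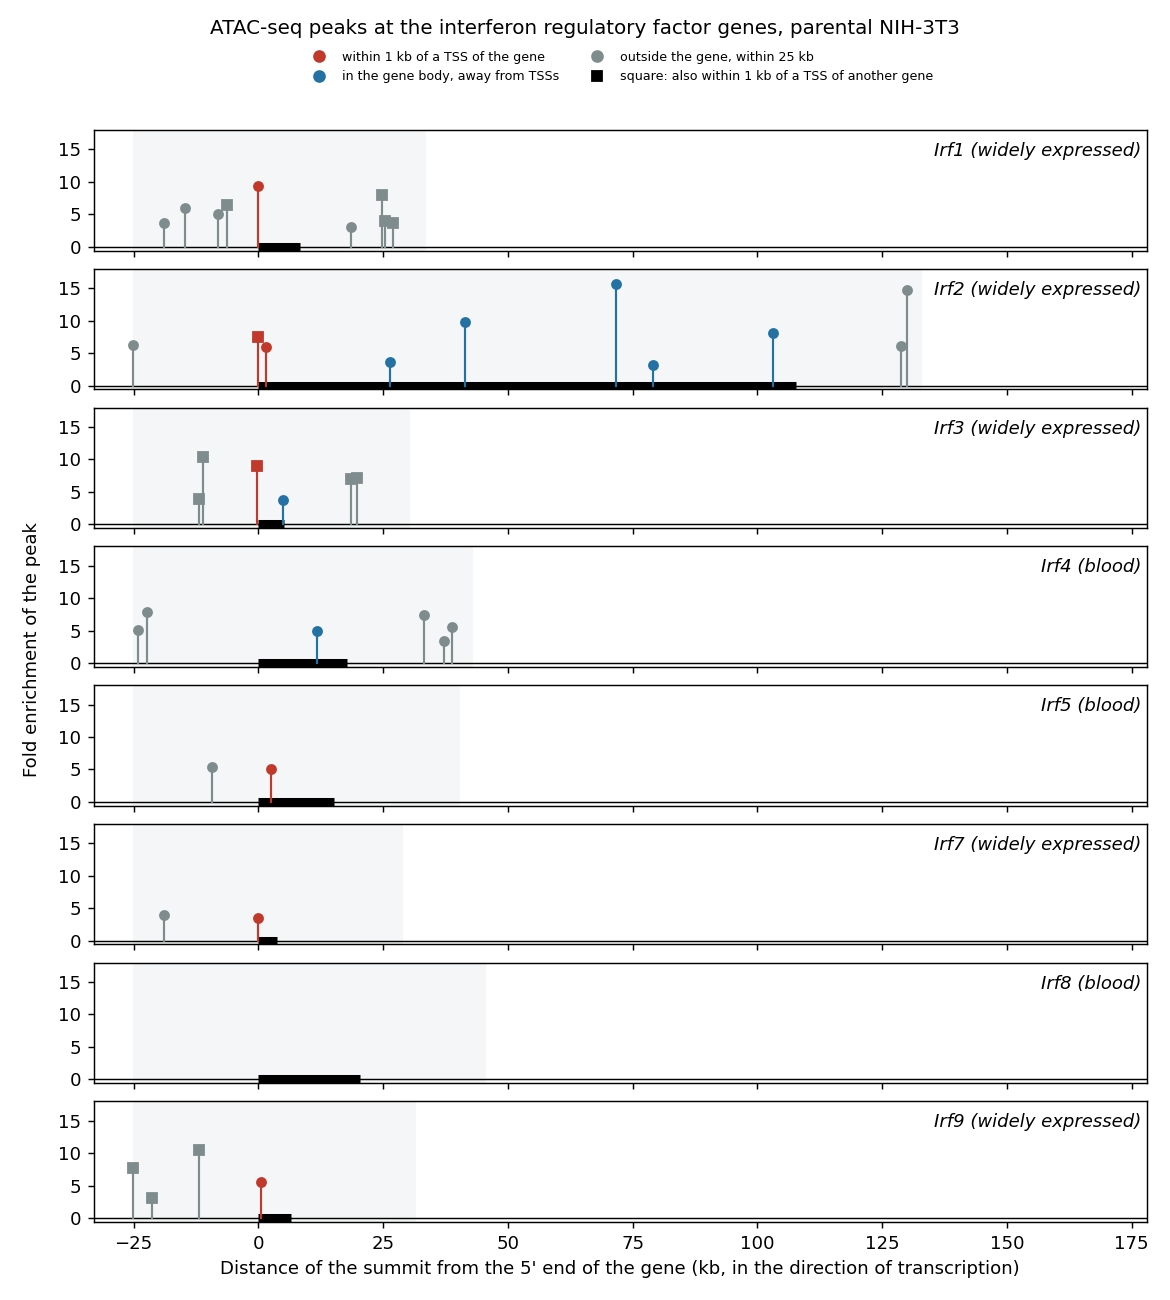
Peaks at the 8 IRF genes, with the distance of each summit from the 5′ end of the gene in kb on the x axis and the fold enrichment on the y axis. The black bar is the gene, the grey area is the gene with 25 kb to either side, and squares also lie within 1 kb of a TSS of another gene. Peaks cover the 5′ ends of Irf1, Irf2, Irf3 and Irf7, the Irf9 peak has its summit 532 bp inside the gene, the highest stem inside a gene is the Irf2 intron peak at 15.6-fold, and the Irf8 row is empty.

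Of the sensor-activated factors, Irf3 had a higher promoter peak than Irf7, and both lay below the median of coding genes with a TSS peak. Irf3 lies at chr7:44997648-45002848 on the plus strand. Its TSS peak, chr7:44997022-44998115, reached a 9.001-fold enrichment with a −log10 q of 37.8, and its summit, 214 bp upstream of the 5′ end, lay under 62 fragments (47.5 to 79.5). The same peak covered the start of Bcl2l12, a gene read in the opposite direction whose nearest TSS was 69 bp from that of Irf3, so the signal cannot be assigned to either gene. Irf7 lies at chr7:141262706-141266481 on the minus strand. Its TSS peak was 128 bp wide, chr7:141266408-141266535, with a fold of 3.56, a −log10 q of 3.85 and 15 fragments (8.40 to 24.7), and its summit lay in the 5′ untranslated exon 4 bp inside the gene. The intervals of Irf3 and Irf7 did not overlap. Of the coding genes with a TSS peak, 41.5% had a weaker strongest peak than Irf3 and 2.43% a weaker one than Irf7.

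Irf9, the DNA-binding part of the interferon-activated STAT complex, lies at chr14:55603571-55610030 on the plus strand. Its peak, chr14:55604014-55604221, had a fold of 5.58, a −log10 q of 12.9 and 30 fragments (20.2 to 42.8). The peak did not cover the annotated 5′ end of the gene. Its summit lay 532 bp inside the gene and 118 bp from the start of another annotated transcript. A STAT motif began 21 bp after the summit, in untranslated sequence at chr14:55604114-55604142 (plus strand), shown in capitals in its context of 29 bases.
Irf9 STAT match: accacgtggtTTCTAGGAAatgcacctcc

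Irf1, an activator that interferon-gamma induces, lies at chr11:53770014-53778374 on the plus strand. Its peak, chr11:53769807-53770502, had the highest fold of the TSS peaks, 9.31, with a −log10 q of 31.9 and 50 fragments (37.1 to 65.9). The summit lay 63 bp upstream of the 5′ end. The STAT motif shown above began 27 bp before the summit and the kB motif 50 bp after it. These are matches of letters and not evidence of binding. The rest of the gene body had no peak.

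Irf2, the competitor of IRF1, is the longest of the genes at 107727 bp and had 7 of the 14 peaks that overlapped the IRF gene bodies. It lies at chr8:46739732-46847458 on the plus strand. The promoter peak, chr8:46739223-46739804, had a fold of 7.52, a −log10 q of 33.3 and 63 fragments (48.4 to 80.6). It is shared with Gm16675, a long noncoding RNA that starts 217 bp away on the other strand. A second peak at chr8:46740581-46741745, in the first kilobases of the gene and within 1 kb of an internal start, had a fold of 5.95 and 49 fragments (36.3 to 64.8).

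The other 5 Irf2 peaks lay in the gene body away from any start of the gene. The peak at chr8:46811172-46811634, in an intron 71769 bp from the 5′ end, had a fold of 15.6, a −log10 q of 66.1 and 77 fragments (60.8 to 96.2). This fold was higher than that of 97.4% of all peaks, and of 98.1% of the 47192 peaks away from TSSs. The fold was 2.07 times that of the Irf2 promoter, but the fragment intervals of both peaks overlapped. The expected number was 4.00 fragments at the intron peak and 7.51 at the promoter, so most of the difference in fold lay in the expectation. Among coding genes that had both kinds of peak, 37.4% had a body peak of higher fold than any TSS peak, so Irf2 was not unusual in this.

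The remaining body peaks of Irf2 ranged from a fold above the upper quartile of all peaks to one below the lower quartile. The intron peak chr8:46781032-46781504 had a fold of 9.72 and 36 fragments, and the summit lay beside an AP-1 motif. The intron peak chr8:46842557-46843254, whose IRF motif is shown above, had a fold of 8.06 and 33 fragments. The intron peak chr8:46766108-46766260 had a fold of 3.68 and 13 fragments. The exon peak chr8:46818694-46818894 had a fold of 3.15 and 11 fragments, close to the lowest of the list, which was 10.

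The blood genes differed among themselves. Irf5, at chr6:29526625-29541871 on the plus strand, had no peak within 1 kb of its 5′ end. Its TSS peak, chr6:29529079-29529309, lay in an intron of the longest transcript, 102 bp from the start of a shorter transcript and 2555 bp from the 5′ end of the gene. The fold was 4.99, the −log10 q 7.37 and the depth 18 fragments (10.7 to 28.4). The AP-1 and ETS-IRF motifs shown above began 15 bp before and 19 bp after that summit.

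Irf4, at chr13:30749226-30766976 on the plus strand, had no TSS peak. The nearest peak to its 5′ end was 11650 bp away, an intron peak at chr13:30760876-30760996. Its fold of 4.99, −log10 q of 7.37 and 18 fragments equalled those of the Irf5 peak, since both rest on the same count over the same genome-wide expectation of 2.81 fragments.

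Irf8, at chr8:120736358-120756694 on the plus strand, had no peak in the gene or within 25 kb of it. The nearest peaks were 59746 bp downstream, at chr8:120816440-120816669 with a fold of 8.90, and 67875 bp upstream, at chr8:120667846-120668483 with a fold of 5.60 and at the shared start of Cox4i1 and Emc8. The peak-free stretch measured 147956 bp. Over all coding genes, 14.7% had their nearest peak at least as far away as Irf8. Of the coding genes without a TSS peak, 43.0% had none within 25 kb either. The list holds called peaks only, so a weaker signal at Irf4 or Irf8 was not detectable in it.

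**Figure D2:**
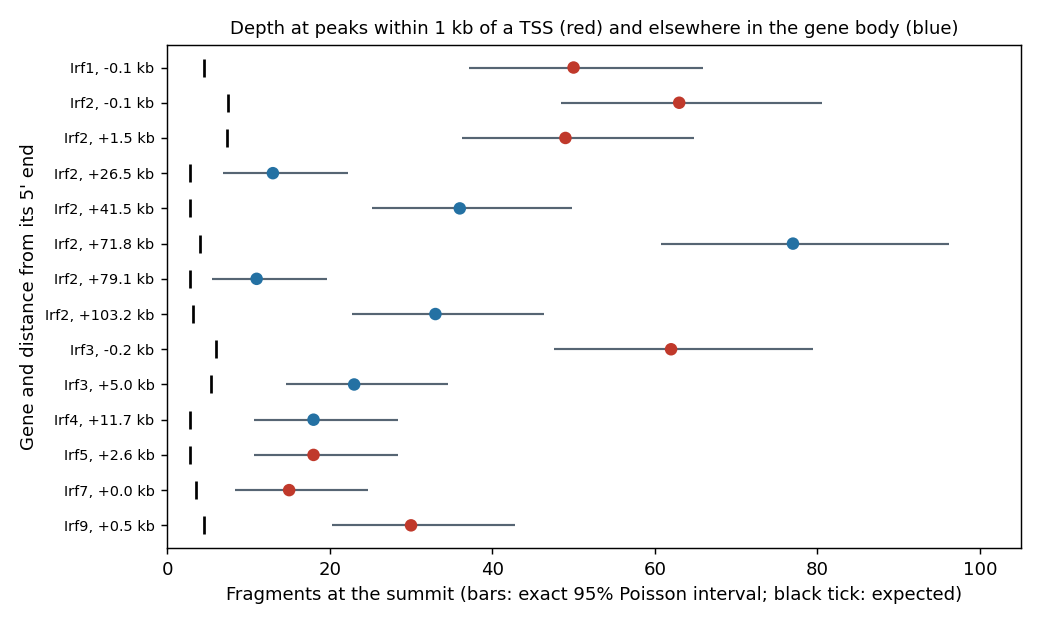
Fragments at the summit (x axis) of the 14 peaks within 1 kb of a TSS (red) or elsewhere in the body (blue) of an IRF gene, named on the y axis with the distance from the 5′ end. Bars are exact 95% Poisson intervals and black ticks the expected number. The promoters of Irf1, Irf2 and Irf3 lie between 50 and 63 fragments, the internal start of Irf5 at 18 and the promoter of Irf7 at 15.

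In order of summit depth, the strongest TSS peaks were those of Irf2 (63 fragments), Irf3 (62), Irf1 (50), Irf9 (30), Irf5 (18) and Irf7 (15). Each interval overlapped that of the next gene in this order, whereas those of Irf2 and Irf3 lay wholly above those of Irf9, Irf5 and Irf7. The median fold was 7.52 in the 5 widely expressed genes, with a range of 3.56 to 9.31, and 4.99 in the 1 blood gene with a value. All 6 lay below the median of coding genes with a TSS peak, which was 9.86 (quartiles 7.27 and 12.4). The coding-gene median of summit depth was 64 fragments, to which Irf2 and Irf3 were close. The TSS peak of Irf3 was wide at 1094 bp, and those of Irf9 (208 bp), Irf5 (231 bp) and Irf7 (128 bp) were narrower than the lower quartile of coding genes, 568 bp.

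**Figure D3:**
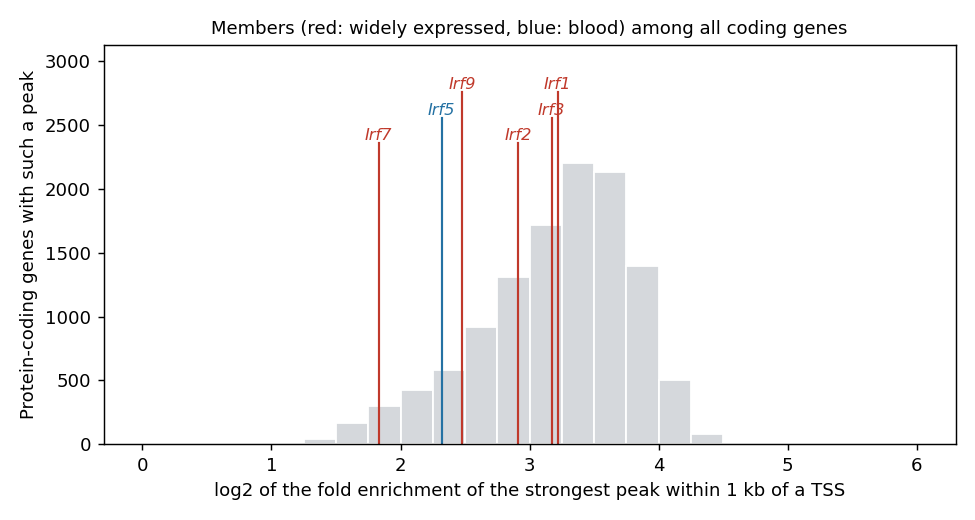
Number of coding genes (y axis) by the log2 of the fold enrichment of their strongest TSS peak (x axis), with the 6 IRF genes that have such a peak as lines, widely expressed in red and blood in blue. All 6 lines lie left of the median fold of 9.86, from Irf7 at 3.56 to Irf1 at 9.31.

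Promoters rich in the dinucleotide CpG are often accessible whether or not the gene is transcribed, so the ratio of observed to expected CpG was taken over the 300 bases at each 5′ end. Of coding genes with a ratio of at least 0.6, 79.8% had a peak within 1 kb of the 5′ end, and of those below it 24.2%. Irf1 (0.912), Irf2 (0.779) and Irf3 (0.712) were CpG-rich and had a peak. Irf5 (0.889) and Irf8 (1.03) were also CpG-rich and had none there. In the bins of the ratio that hold Irf5 and Irf8, 84.0% and 87.8% of coding genes had a peak. On the CpG-poor side, Irf9 (0.300) and Irf7 (0.142) had a peak, in bins where 27.6% and 12.2% of genes did, and Irf4 (0.401) had none. CpG content thus matched the call in 4 of the 8 genes. In the other 4 a peak lay within 1 kb of a CpG-poor 5′ end or was absent at a CpG-rich one. The Irf9 peak lay 443 bp from the 5′ end that was scored and did not cover it. The ratio was not taken at the other Irf9 start near that peak.

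**Figure D4:**
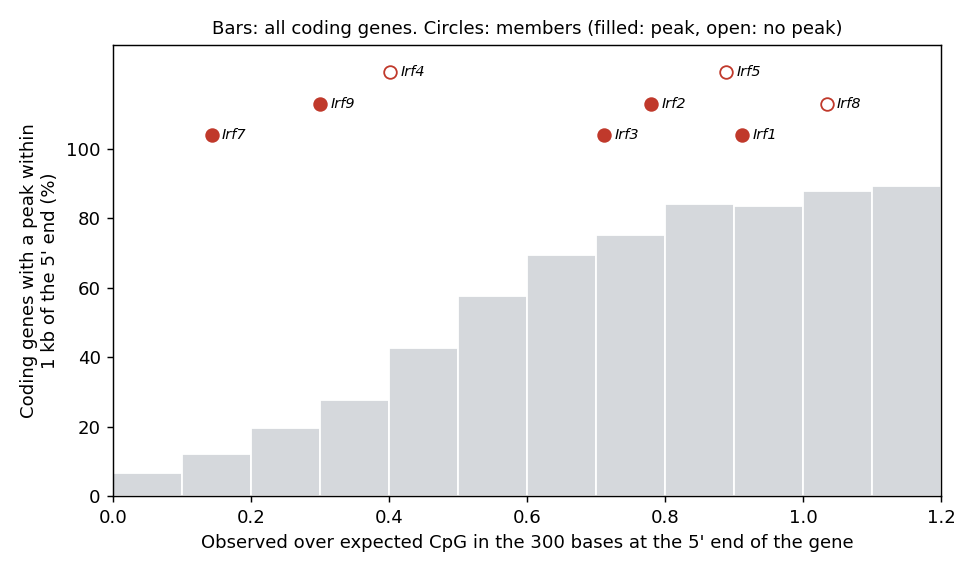
Share of coding genes with a peak within 1 kb of the 5′ end (bars, y axis in percent) in bins of the observed over expected CpG ratio (x axis), with the 8 IRF genes as circles placed by their ratio only. Filled circles have a peak and open circles none. Irf5 and Irf8 are open at ratios of 0.889 and 1.03, and Irf7 and Irf9 are filled at 0.142 and 0.300.

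The surroundings of the genes also differed. Within the genes and 25 kb to either side, 7 of the 8 IRF genes had at least 1 peak, against 80.1% of coding genes, and 7 had a peak overlapping the gene body, against 63.2%. There were 39 peaks in all, 31 in the windows of the 5 widely expressed genes and 8 in those of the 3 blood genes. Over all coding genes the median was 3 peaks per window (quartiles 1 and 6). The groups differ in number of genes and in window length, so their totals are not directly comparable. Of the 39 peaks, 12 and 2 overlapped the bodies of the widely expressed and the blood genes. That is 0.912 and 0.375 per 10 kb of gene body, with 0.354 over all coding genes. TSS peaks made up 6 of the 12 and 1 of the 2. Of the 6 others in the widely expressed genes, 5 were in Irf2. A TSS peak weighs more per 10 kb in a short gene, such as Irf7 at 3776 bp, so these rates also depend on gene length. Outside the gene bodies and TSSs lay 25 peaks, of which 11 were at the TSS of another gene, all in windows of widely expressed genes.

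Near Irf1 the strongest flanking peaks were at Gm12216 (8.01-fold), at the microRNA gene Mir7671 (6.45-fold) and 14764 bp upstream (6.02-fold). Near Irf3 all 4 flanking peaks were at promoters of other genes, led by Prmt1 (10.3-fold), an arginine methyltransferase gene, and followed by 7.20-fold at Rras and Scaf1 and 6.96-fold at Scaf1 alone. The window of Irf3 held 6 other coding genes, and each had a TSS peak.

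Irf2 and Irf4 had no other coding gene within 25 kb, so their flanking peaks lie at no such promoter. Downstream of Irf2 the peak chr8:46869438-46870001 had a fold of 14.8, a −log10 q of 96.1 and 120 fragments (99.5 to 143), the deepest of the 39. Its other flanking peaks had folds of 6.21 and 6.06. Irf4 had 5 flanking peaks, the strongest at chr13:30726691-30727250 (7.90-fold), 22201 bp upstream. The next were downstream, with folds of 7.37 and 5.62. A weaker one, named after its values were seen, had a fold of 5.14 and the only IRF motif at a blood gene, at chr13:30725095-30725158 (plus strand), with a STAT motif after it.
Irf4 upstream peak: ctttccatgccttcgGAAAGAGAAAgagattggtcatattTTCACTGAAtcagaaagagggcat

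Irf5 and Irf7 had 1 flanking peak each, with folds of 5.39 and 3.94. The flanking peaks of Irf9 were all at promoters of neighbours: Psme2 and Rnf31 (10.5-fold), Psme1 (7.74-fold) and Emc9 (3.15-fold). Psme1 and Psme2 encode the subunits of the interferon-inducible proteasome activator. Both of their peaks held an IRF motif of the same 10 letters, on the minus strand, shown in capitals at chr14:55578493-55578522 and chr14:55590927-55590956 (plus strand).
Psme1 peak: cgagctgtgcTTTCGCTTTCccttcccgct
Psme2 and Rnf31 peak: cagccccagcTTTCGCTTTCactctccagg

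Motifs were searched on both strands over the whole width of each peak, and an ETS-IRF match can overlap an IRF match, as at Irf2. The IRF motif lay in 6 of the 39 peaks at the IRF genes (15.4%), against 4.54% of all peaks. Of these 6, 2 were at Irf2, 2 at Psme1 and Psme2 near Irf9, 1 near Irf4 and 1 near Irf1. Within 50 bp of the summit it lay in 1 of the 39, an intron peak of Irf2, and in 0.939% of all peaks. The 300 bases at the 5′ end hold it in 3.55% of coding genes. The ETS-IRF motif lay in 5 peaks (all peaks 3.86%), the STAT motif in 7 (12.4%) and the kB motif in 8, or 20.5% (5.83%, and 11.7% of TSS peaks). The AP-1 motif lay in 12, or 30.8% (34.9%), and GGGCGG, the site of SP and KLF factors, in 15, or 38.5% (22.1%, and 61.5% of TSS peaks). In windows of 300 bases at the 5′ ends of coding genes, ETS-IRF was found in 2.81%, STAT in 8.39%, kB in 4.89%, AP-1 in 4.59% and GGGCGG in 43.0%. The member peaks differ from all peaks in width and in how many lie at TSSs, so these shares are descriptions.

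One further peak in an IRF gene held a pair of AP-1 motifs close together. It is 116 bp wide, chr7:45002601-45002716, with its summit in an untranslated part of an exon of Irf3, with a fold of 3.79 and 23 fragments (14.6 to 34.5). The motifs at chr7:45002654-45002678 (plus strand) are in capitals.
Irf3 AP-1 pair: TGACTCAccaccacggacTGAGTCA

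The rest of the pathway was followed in a list of 72 genes by role, chosen from textbook knowledge with earlier results of these data known. A TSS peak was present at 51 of them (70.8%, exact 95% binomial interval 58.9% to 81.0%), against 53.7% of all coding genes. That interval covers counting error only. The genes were picked by hand and not drawn at random, so it is no test of enrichment. With 4 to 24 genes in a role, the counts by role that follow are descriptions to be read against that same share. Among 14 sensors and adaptors 11 had one, led by Mavs, the mitochondrial adaptor of RNA sensing (15.1-fold), and Tlr4, the receptor for bacterial lipopolysaccharide (14.1-fold). The RNA sensor gene Ifih1, the DNA-sensing adaptor gene Tmem173 (STING) and Tlr9 had none. All 4 kinases had a peak, with the NF-kappaB pathway kinases Ikbkb (11.6-fold) and Chuk (10.1-fold) highest.

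None of the 5 interferon ligand genes had a TSS peak, where the share of all coding genes is 53.7%. They were Ifnb1, Ifna4, Ifng, Ifnk and Ifnl3, named after their values were seen. Their 5′ ends were CpG-poor, with ratios from 0.119 (Ifna4) to 0.443 (Ifng). In the bins of the ratio that hold them, 12.2% to 42.6% of coding genes had a peak within 1 kb of the 5′ end. Of 6 receptor genes 5 had one. Ifngr1, of the interferon-gamma receptor, reached 14.3-fold and Ifnar1, of the type I receptor, 12.5-fold. Ifnlr1, of the lambda receptor, had none. All 6 JAK and STAT genes had one, led by Jak1 (16.3-fold), the highest in the list. All 7 inhibitors did too, led by Usp18 (14.1-fold), which damps type I receptor signalling, and the phosphatase gene Ptpn2 (12.0-fold).

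Of 6 genes listed as working with IRF4 or IRF8, Prdm1 and Spi1 had a TSS peak. Spi1 (3.22-fold) encodes the DNA-binding partner PU.1 named above, and Prdm1 (14.0-fold) a repressor known from plasma cells. The others were Spib, Batf, Batf3 and Ikzf1, again named after their values were seen. Of 24 interferon targets 16 had one, with Eif2ak2, the RNA-activated kinase PKR (15.3-fold), and B2m, the light chain of MHC class I (15.1-fold), highest. Psmb9 and Tap1 share 1 of these peaks. The strongest TSS peak held an IRF motif in 14 of the 51 genes (27.5%) and in 9 of the 16 targets, against 6.4% of coding genes with a TSS peak. None of the 11 sensors and adaptors with a peak had the motif there. Among the 6 IRF genes it was in the strongest TSS peak of Irf2 alone. The peak shared by Psmb9 and Tap1 holds the motif and was counted for both genes. The listed genes were picked by hand, the targets as genes that interferon induces, so these shares are descriptions and no test.

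**Figure D5:**
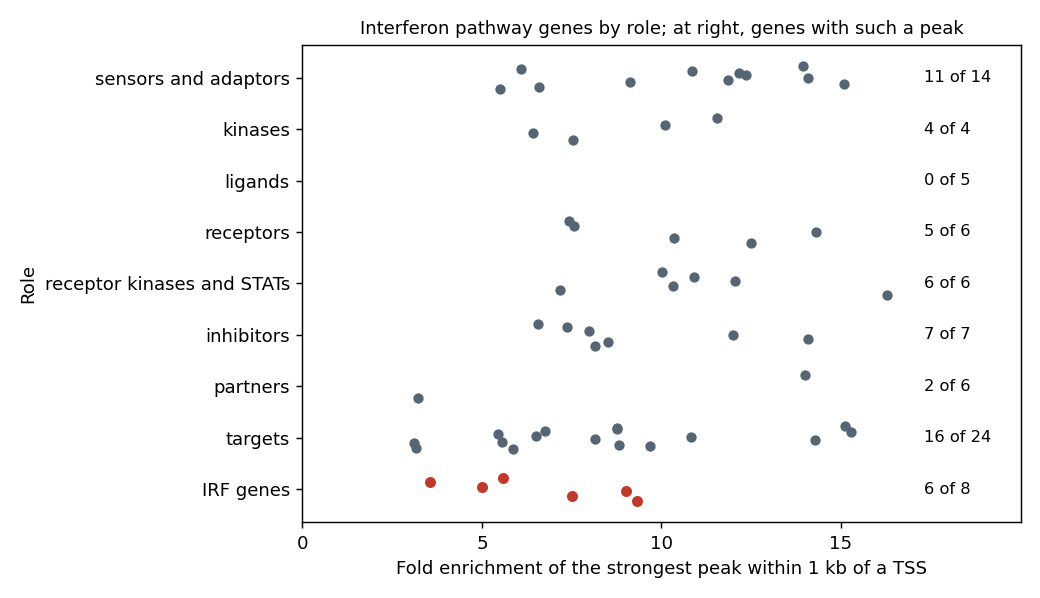
Fold enrichment of the strongest peak within 1 kb of a TSS (x axis) for each gene with such a peak, by role (y axis), with the IRF genes in red and the number of genes with a peak at the right. The IRF genes lie between 3.56 and 9.31, and the ligand row is empty because 0 of 5 genes had a peak.

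The label of the cell line was checked with marker genes, again beside the 53.7% of all coding genes with a TSS peak. A TSS peak was present at 9 of 10 fibroblast markers, with Postn lacking it. The fibroblast folds ranged from 3.41 (Thy1) to 10.5 (Fn1), with a median of 6.62. A TSS peak was also present at 2 of 10 blood markers (Csf1r, 5.68-fold, and Spi1, 3.22-fold) and at 2 of 8 epithelial markers (Krt14, 7.07-fold, and Grhl2, 5.40-fold). The peaks of the blood and epithelial markers thus lay within the range of the fibroblast markers, except that of Spi1. The blood markers without one, among them Cd3e and Itgam, had CpG ratios from 0.189 (Ptprc) to 0.394 (Vav1), except Coro1a at 0.667. Of coding genes with a ratio under 0.6, 24.2% had a peak within 1 kb of the 5′ end, so lacking one is common there. In the bin of the ratio that holds Coro1a, 69.4% had one. Of the fibroblast markers with a TSS peak, only Fn1 (0.897) and Twist1 (0.827) had a ratio of at least 0.6. The others ranged from 0 (Col3a1) to 0.585 (Vim). Whether CpG content accounts for the contrast between the marker groups was not tested.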

How the data were processed

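According to the methods and labels, Tn5 (0.5 µM) was applied to the nuclei of 50000 cells, and libraries were amplified for 12 cycles. The authors aligned reads to mm10 and called peaks on fragments; their processing notes name STAR 2.5.3a, Picard and MACS2 2.1.1.20160309. The authors deposited for each peak a fold enrichment (a ratio), the −log10 of p and of q, and a score derived from the latter. The lowest −log10 q was 1.30, and the number of reads is not part of the list. Fragments at each summit were solved from the fold and −log10 p, which gave whole numbers (within 0.02) for 99.998% of the peaks that could be solved, and 29 could not. The solution was tested on simulated data.

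Peaks were compared with GENCODE release 21 on GRCm38 in Python 3.11.15 with pandas 2.3.3, NumPy 2.4.6, SciPy 1.17.1 and matplotlib 3.10.9. A TSS peak lies at most 1 kb from where any transcript of the gene starts. The RefSeq promoter table matched 8 of the 8 genes. Members and lists were chosen with earlier results of these data known. Named were all IRF genes, per role the 2 genes with the highest fold and, where 3 or fewer lacked a peak, those lacking it, and the 3 highest flanking peaks per gene. Some genes that this rule names are not reported here. Intervals cover counting error only. With 1 library no test between groups was made. Alternatives varied the q, fold, distance, annotation and grouping.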

Additional observations from a re-analysis of the deposited data

How the results depend on the processing

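No paired analysis was possible because 1 library without a replicate was analysed and no result comes from a test. Of 70 alternative values, 54 stayed within 1.5 times the count or within the interval of the value reported. The number of blood genes with a TSS peak, 1 as reported, became 0 at a fold of at least 5, 0 with Irf5 among the widely expressed genes, 0 when only the 5′ end of the gene was counted (an alternative added after seeing the data), and 2 with Irf7 among the blood genes. The median fold of the blood genes has no value under the first 3 of these. A fold of at least 5 left 8 peaks in the gene bodies in place of 14, and 24 in the windows in place of 39. The windows held 17 peaks with flanks of 10 kb and 63 with flanks of 50 kb. Peaks with an IRF motif, 6 as reported, fell to 1 within 50 bp of the summit and were 2 when only TSS and body peaks were counted. The share of coding genes with a TSS peak was 52.0% at a q of 1e-05, 48.8% at a fold of at least 5, 48.7% when the peak had to overlap the TSS, 57.7% within 2.5 kb, 52.0% with coding transcripts only and 48.9% at the 5′ end only. A q of 1e-05 removed Irf7 from the genes with a TSS peak, a fold of at least 5 removed Irf5 and Irf7, and overlap with the TSS removed Irf9. The lowest summits rest on 10 fragments, and the list cannot tell a weaker signal from none.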
